A study of Mus musculus with 18 samples.

Results

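Mouse natural killer (NK) cells that had lost Acly were compared after and before stimulation through the activating receptor NKG2D. The comparison rests on 6 of the 18 RNA-seq libraries, chosen by their labels: 3 of knock-out cells that were primed with IL-15, washed and held on plate-bound NKG2D reagent (stimulated knock-out), and 3 of knock-out cells that were primed alone (primed knock-out). All mice carried Ncr1 CRE-ERT2 and the reporter Rosa YFP/YFP; those of the knock-out were also Acly fl/fl, and those of the wild type, used here for the difference between genotypes, were not, again with 3 stimulated and 3 primed libraries. Both genotypes had received a tamoxifen diet for 48 hours and were sorted from spleen as YFP-positive NK cells 5 days after it ended. Priming lasted 72 hours, with 100 ng/ml of IL-15. Stimulation lasted 6 hours, on a plate coated at 20 ug/ml. The Cre is driven from Ncr1 and is active only with tamoxifen, so deletion is confined to cells that express the Ncr1 driver at that time, and YFP marks cells in which the Cre acted. Stimulated cells differ from primed cells in the wash, in the time in culture and in NKG2D engagement, and without washed cells that were not stimulated these cannot be told apart. The labels do not say whether the 3 libraries of a group came from separate animals, so p-values measure only the spread between libraries. That spread was estimated over all 18 libraries together.

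Acly encodes ATP-citrate lyase, which cleaves citrate in the cytosol into oxaloacetate and acetyl-CoA, the carbon source of cholesterol and fatty acid synthesis and of histone acetylation. NKG2D, encoded by Klrk1, binds stress-induced ligands on target cells and signals through the adaptors DAP10 (Hcst) and, in mouse, DAP12 (Tyrobp), which lead to phosphoinositide 3-kinase, Vav and Syk-family kinases, calcium release and ERK. In NK cells this signal is known for release of perforin and granzymes and for production of interferon gamma and chemokines. IL-15 acts through JAK kinases and STAT5, drives growth and survival, and raises the granzyme and perforin stores of cultured NK cells.

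The libraries held 19130510 to 22724195 reads in genes in the stimulated knock-out group and 14772350 to 23317307 in the primed knock-out group. Replicate 1 stood apart in each: primed replicate 1 held 14695 genes with a read against 18190 or more in the other 2, and stimulated replicate 1 differed more from replicates 2 and 3 (chi-square per degree of freedom 80.1 and 71.3) than these did from each other (12.3). Counts are therefore also given without both. Replicate 2 of both knock-out groups had Xist and no read of the Y-linked Ddx3y. The other 4 had Ddx3y and at most 0.144 CPM of Xist, so each group mixed the sexes in the same proportion. Levels are in CPM, a gene's share of its library's reads after scaling between libraries, and are not per gene length, so they are compared within a gene only. Acly mRNA was 39.0, 28.2 and 41.9 CPM in stimulated knock-out libraries and 41.4, 38.1 and 48.9 CPM in primed knock-out libraries, which overlap (log2 fold change -0.24, SE 0.19, adjusted p = 0.366). Wild-type libraries averaged 164 ± 32.9 CPM stimulated and 256 ± 26.9 CPM primed (SD, n = 3 each), so some Acly mRNA remained in the knock-out cells in both conditions. Acly lies on the minus strand at chr11:100476353-100528000 (mm10), and whether the floxed part was deleted was not measured by values per gene.

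Of 14864 genes tested, 2735 rose (18.4%) and 2513 fell (16.9%) in stimulated against primed knock-out cells, by edgeR's quasi-likelihood test with Benjamini-Hochberg adjustment over all genes at 0.05. These shares, 35.3% of genes in either direction, are the background for the counts of list members below. At least 2-fold changes were called for 1158 genes upward (7.79%) and 1144 downward (7.70%). Without replicate 1 of both groups, 2220 genes rose and 2431 fell, and 3849 of these calls were among the 5248 made with all libraries. Without scaling between libraries 3982 rose and 1833 fell, and the median log2 fold change of all genes was 0.22 there against 0.04 with scaling; changes of a size near that shift depend on the scaling. A lower level of a transcript in a bulk sample can mean less RNA per cell or fewer cells that hold it, and these cannot be told apart.

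**Figure D1:**
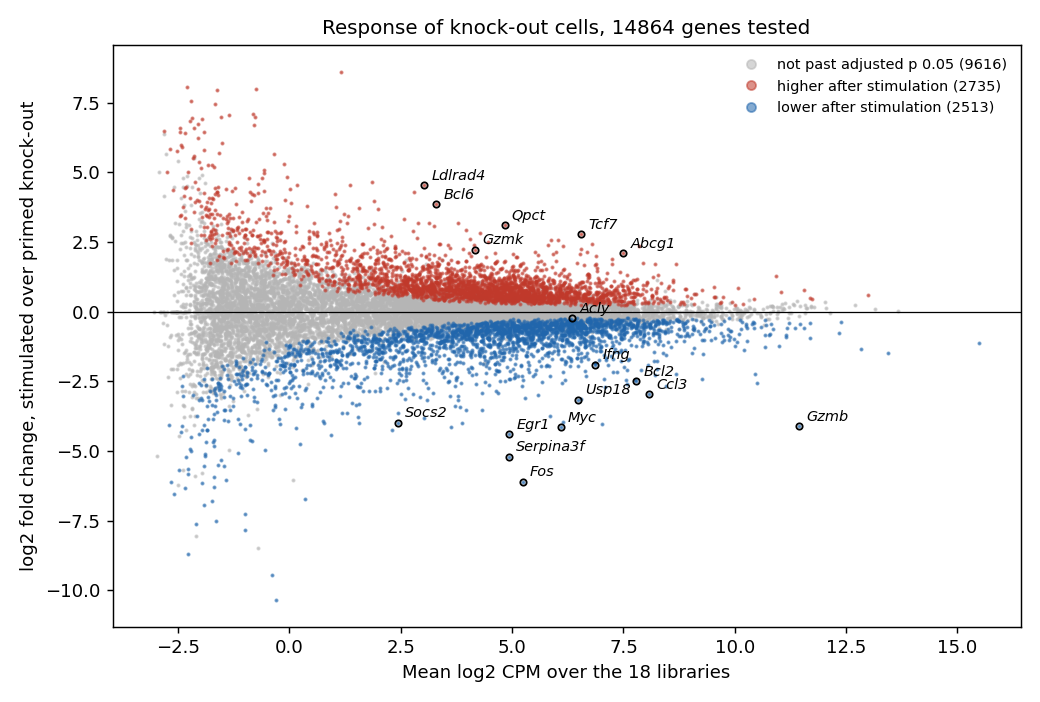
Each point is a gene, by its mean log2 CPM over the 18 libraries (horizontal) and its log2 fold change in stimulated over primed knock-out cells (vertical). Red and blue points are the 2735 genes that rose and the 2513 that fell at adjusted p 0.05, with log2 fold changes of -6.10 for Fos and 4.54 for Ldlrad4.

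The largest rises among well-measured genes were of Ldlrad4, a dampener of TGF-beta signalling, and of Bcl6, a transcriptional repressor that opposes effector differentiation in lymphocytes. Ldlrad4 was at 56.0, 37.4 and 40.7 CPM in stimulated and 0.402, 3.28 and 1.83 CPM in primed knock-out libraries. The groups lie far apart (log2 fold change 4.54, SE 0.41, adjusted p = 2.16e-07). Bcl6 was at 43.2, 43.4 and 46.0 CPM in stimulated libraries and 1.54, 3.77 and 3.66 CPM in primed libraries, every stimulated value being above every primed one (3.86, SE 0.23, adjusted p = 2.57e-09). Tcf7, which encodes TCF1, a factor of NK development that marks less differentiated lymphocytes, reached 298, 218 and 245 CPM, against 41.3, 34.0 and 35.9 CPM in primed cells (2.77, SE 0.17, adjusted p = 2.42e-09). Other large rises were of Qpct, which encodes glutaminyl cyclase (3.11), Ypel3 (3.08), the muscle-atrophy ubiquitin ligase gene Fbxo32 (2.61), a FOXO target, Camk2b, a calcium and calmodulin-dependent kinase (2.81), Dhrs3, a retinal reductase (2.57), and Acss1, which makes acetyl-CoA from acetate in mitochondria (2.42). Rasgef1a, Slc26a11, Calcoco1, Acsbg1, Mypopos and the chemokine gene Ccl1 complete the 15 largest, at 2.45 to 3.18.

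The largest falls were led by Fos, a subunit of the AP-1 factor that early activation signals induce. Fos was at 1.51, 1.17 and 0.938 CPM in stimulated and 53.8, 76.8 and 118 CPM in primed knock-out libraries, a 68.5-fold lower level (log2 fold change -6.10, SE 0.30, adjusted p = 4.49e-10). Myc, the driver of growth programmes, was at 18.8, 8.65 and 14.3 CPM in stimulated and 245, 225 and 267 CPM in primed libraries (-4.14, SE 0.25, adjusted p = 2.27e-09). Gzmb, which encodes granzyme B, was at 682, 498 and 514 CPM in stimulated and 7891, 9579 and 11670 CPM in primed libraries (-4.10, SE 0.24, adjusted p = 2.27e-09). In all 3 genes the stimulated libraries lie far below the primed ones. The interferon-induced genes Gbp10 (-4.14) and Ifi44 (-3.39), the protease inhibitor gene Serpina3f (-5.21), the folate-cycle gene Shmt1 (-3.81), the GTPase gene Gem (-4.02), the cytokine gene Osm (-3.41), and Metrnl (-3.16) and Rgs18 (-3.18) also belong to the 15 largest falls.

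**Figure D2:**
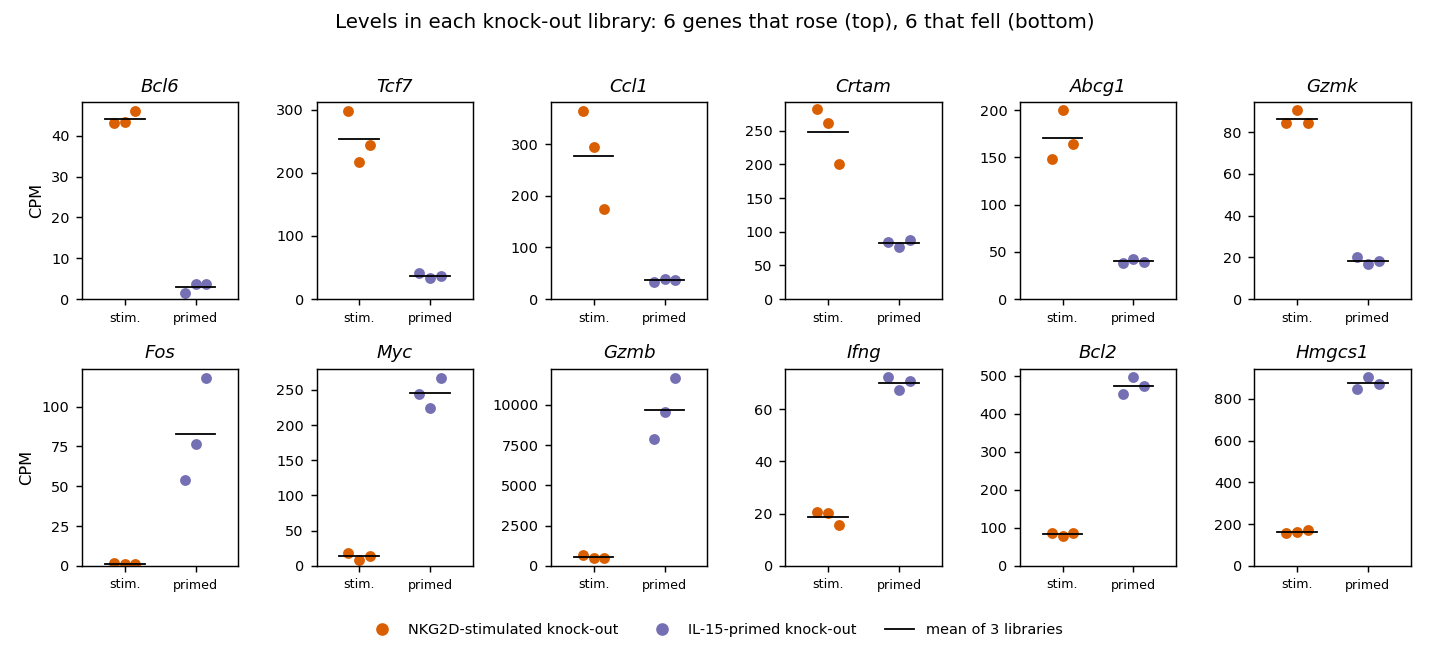
CPM of 12 genes in each library (points), stimulated knock-out on the left and primed knock-out on the right of each panel, with the mean as a line. In all 12 the 3 stimulated and the 3 primed values do not overlap, as is true of 43.1% of the genes tested (23.4% with stimulated higher and 19.6% with stimulated lower).

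The receptor gene and its adaptor genes changed by small amounts, and genes of proximal signalling moved both ways. Klrk1 was at 994, 1170 and 1104 CPM in stimulated and 1244, 1378 and 1359 CPM in primed knock-out cells, a small fall (log2 fold change -0.28, SE 0.09, adjusted p = 0.0241) that was not past the test without primed replicate 2 (adjusted p = 0.0765), without primed replicate 3 (0.063) or without scaling between libraries (0.386). Hcst, the DAP10 gene, was at 144, 103 and 88.0 CPM in stimulated and 120, 158 and 152 CPM in primed cells (-0.36, adjusted p = 0.0917), and it was past the test without stimulated replicate 1 (-0.61, adjusted p = 0.00314) or primed replicate 1 (-0.48, adjusted p = 0.0436). Tyrobp, the DAP12 gene, did not pass either (0.29, adjusted p = 0.22). Of 36 tested genes of the receptor and its proximal signalling, 6 rose and 9 fell, 41.7% against 35.3% of all genes. Without scaling between libraries these were 13 and 5, and without replicate 1 of both groups 3 and 10. The falls included the adaptor gene Lat (-0.90, adjusted p = 0.00026), and the rises Sh2d1a, the adaptor SAP of the SLAM receptors (0.91, adjusted p = 3.79e-05), and Pik3ca, a phosphoinositide 3-kinase subunit (0.61, adjusted p = 0.00284).

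Immediate-early genes, which respond within minutes to hours of receptor signals, fell more often than they rose at 6 hours. Of 31 tested, 16 fell and 4 rose, of which 1 rose without stimulated replicate 1 or primed replicate 1, with a median log2 fold change of -0.66 against 0.04 over all genes. Egr1 was at 5.20, 5.66 and 5.95 CPM in stimulated and 126, 119 and 110 CPM in primed knock-out libraries (-4.40, SE 0.25, adjusted p = 1.77e-09), with a wide gap between the groups. Egr3 fell by 1.69 (adjusted p = 5e-05). Egr2, which calcium signals induce, did not pass the test, at 102, 84.2 and 75.3 CPM in stimulated and 70.3, 66.2 and 73.4 CPM in primed cells (0.31, SE 0.14, adjusted p = 0.0975). Nr4a1, another target of antigen-receptor signals, was at 24.8, 16.3 and 14.9 CPM against 27.2, 25.1 and 35.4 CPM (-0.65, adjusted p = 0.0756), and was past the test without stimulated replicate 1 (-0.92, adjusted p = 0.0279). The rises were Klf10 (0.72, adjusted p = 0.00011), Batf, Batf3 and Btg2 (0.48, adjusted p = 0.03), and Btg2 was not past the test without stimulated replicate 1 (adjusted p = 0.162), primed replicate 1 (0.131) or primed replicate 2 (0.0506). Batf3 was under 1 CPM in each of the 6 libraries, and its call (1.88, adjusted p = 0.0436) was lost when any library but primed replicate 2 was left out (adjusted p 0.0578 to 0.108).

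Feedback genes of ERK and calcium signalling moved both ways: of 24, 8 fell and 7 rose (62.5%, against 35.3% of all genes). The phosphatase gene Dusp6, a read-out of ERK activity in many cells, was at 12.3, 9.54 and 7.50 CPM in stimulated and 163, 150 and 143 CPM in primed knock-out libraries (log2 fold change -3.96, SE 0.18, adjusted p = 2.66e-10). Dusp1 fell by 2.04 (adjusted p = 1.41e-07), as did the ERK inhibitor genes Spry4, Spry2, Spred1 and Spred2, while Dusp2 (1.16, adjusted p = 0.000394) and Dgka, a diacylglycerol kinase that limits Ras activation (1.40, adjusted p = 3.77e-06), rose. Of 27 NF-kB subunits, regulators and targets, 13 rose and 0 fell (48.1%, median 0.46), and 9 rose without replicate 1 of both groups. Tnip1, a partner of the inhibitor A20, was at 159, 107 and 112 CPM in stimulated and 63.4, 56.0 and 62.5 CPM in primed cells (1.06, SE 0.12, adjusted p = 3.89e-06). Traf2 rose by 1.00 (adjusted p = 0.000195), whereas Nfkbia, a rapid NF-kB target that encodes its inhibitor, was at 293, 213 and 222 CPM against 152, 210 and 246 CPM, with overlapping groups (0.26, adjusted p = 0.557).

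Several genes of secreted effector molecules were lower in stimulated knock-out cells. Of 18 tested cytokine genes 6 fell and 2 rose (median log2 fold change -0.85), and of 9 chemokine genes 6 fell and 1 rose (median -1.06), where 16.9% of all genes fell and 18.4% rose. Without scaling 4 chemokine genes fell and 2 rose, and with the 6 libraries alone 4 fell and 1 rose. Without replicate 1 of both groups 5 fell and 1 rose. Ifng, the interferon gamma gene at chr10:118441046-118445892 (mm10), was at 20.6, 20.1 and 15.5 CPM in stimulated and 72.5, 67.1 and 70.8 CPM in primed libraries. Each stimulated library was below each primed library (-1.90, SE 0.15, adjusted p = 4.29e-08). Csf2, the GM-CSF gene, was at 1.64, 2.62 and 1.30 CPM against 4.49, 4.17 and 7.84 CPM (-1.58, adjusted p = 0.0176), a call that was lost without stimulated replicate 1 (adjusted p = 0.0562), stimulated replicate 3 (0.0704) or primed replicate 3 (0.0816). Tnf was low in both groups, at 2.98, 1.54 and 0.979 CPM against 3.62, 2.17 and 3.51 CPM, and did not pass (-0.75, adjusted p = 0.204; without stimulated replicate 1, -1.31, adjusted p = 0.0476). Lif, a STAT3-acting cytokine gene, had no read in any stimulated library, against 7.17, 5.50 and 8.42 CPM in primed libraries. With a floor of 3 reads per library this is at least 54.3-fold lower, and the list's median stays at -0.85 with Lif at that bound. Il16 (1.18, adjusted p = 1.81e-06) and Tgfb1 (0.84, adjusted p = 0.0256) rose, Tgfb1 not without stimulated replicate 1 (adjusted p = 0.11) or 2 (0.0597) or primed replicate 2 (0.112) or 3 (0.0947).

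The chemokine genes moved apart. Ccl3, which encodes MIP-1 alpha, was at 43.2, 36.2 and 29.1 CPM in stimulated and 267, 274 and 298 CPM in primed knock-out libraries (log2 fold change -2.95, SE 0.23, adjusted p = 3.77e-08). Its neighbour Ccl4, which encodes MIP-1 beta, was at 319, 286 and 204 CPM against 1281, 1602 and 1855 CPM (-2.55, SE 0.22, adjusted p = 1.47e-07). In both the groups lie far apart. Xcl1, the lymphotactin gene, was at 776, 641 and 463 CPM against 792, 826 and 968 CPM, a small difference (-0.46, adjusted p = 0.049) that was not past the test when any library but stimulated replicate 1 was left out (adjusted p between 0.0536 and 0.206). Ccl1, a ligand of CCR8, was the chemokine gene that rose, at 364, 294 and 175 CPM in stimulated and 32.9, 39.6 and 36.7 CPM in primed cells (2.93, SE 0.23, adjusted p = 4.21e-08). Ccl5 had overlapping groups (0.25, adjusted p = 0.194).

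Of 28 genes of cytotoxic granules and death ligands, 12 fell and 3 rose (median log2 fold change -0.27), 53.6% against 35.3% of all genes. Prf1, the perforin gene, was at 377, 258 and 240 CPM in stimulated and 1146, 1432 and 1533 CPM in primed libraries (-2.23, SE 0.20, adjusted p = 2.16e-07). Serpinb9, which protects the cell from its own granzyme B, was at 113, 104 and 111 CPM against 565, 709 and 828 CPM (-2.68, SE 0.19, adjusted p = 1.36e-08). Granzyme genes did not move as 1 group: Gzma (-1.33, adjusted p = 3.24e-06) and Gzmm (-2.19, adjusted p = 2.74e-06) fell with Gzmb, while Gzmk, a granzyme of less mature NK cells, was at 84.5, 90.7 and 84.4 CPM in stimulated and 20.2, 16.9 and 18.2 CPM in primed cells (2.23, SE 0.24, adjusted p = 1.67e-06). Gzmc fell and Gzmd, Gzme, Gzmf and Gzmg were not past the test, and these neighbours of near-identical sequence may share reads. Fasl, the Fas ligand gene, fell by 0.68 (adjusted p = 5.61e-05), and Stxbp2, needed for granule fusion, rose by 0.62 (adjusted p = 0.00071).

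Several genes that IL-15 is known to maintain through JAK and STAT5 fell after the wash and stimulation. Of 36 tested genes of the IL-15 receptor, JAK-STAT5 and its targets, 18 fell and 6 rose (median log2 fold change -0.50). That is 66.7%, against 35.3% of all genes. Cish, a STAT5-induced feedback inhibitor, was at 4.40, 4.16 and 3.55 CPM in stimulated and 35.2, 51.7 and 52.7 CPM in primed knock-out libraries (-3.53, SE 0.41, adjusted p = 3.58e-06). Its relative Socs2 was at 1.30, 1.22 and 1.43 CPM against 28.1, 17.5 and 17.4 CPM (-3.99, SE 0.44, adjusted p = 2.5e-06). Both sets of libraries lie well apart. The survival gene Bcl2, at chr1:106538178-106714274 (mm10), was at 86.1, 79.7 and 85.2 CPM in stimulated and 452, 496 and 473 CPM in primed cells (-2.50, SE 0.11, adjusted p = 1.13e-10). The cyclin gene Ccnd2 fell by 2.40 (adjusted p = 6.55e-09), the kinase genes Pim1 by 1.48 (adjusted p = 1.15e-06) and Pim2 by 3.74 (adjusted p = 0.000508). Il2rb, the shared IL-2 and IL-15 receptor chain, had a small fall (-0.45, adjusted p = 0.0272) that was lost without stimulated replicate 2 (adjusted p = 0.112) or 3 (0.1), primed replicate 2 (0.0599) or 3 (0.0894), or scaling (0.107). Bcl2l11, which encodes the death inducer BIM, rose by 1.37 (adjusted p = 6.87e-08), as did Jak2 (0.83, adjusted p = 0.00032), Stat5a and Stat5b.

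The promoters of a gene that fell and of a gene that rose are shown because STAT5 is known to bind both: Cish, a classical induced target, and Bcl6, which STAT5 is known to repress in lymphocytes. The windows run from 250 bases before to 50 after the transcription start in RefSeq (GRCm38.p6), 5′ to 3′ on the gene's strand, with matches to the STAT palindrome TTCNNNGAA in capitals. The Cish window is chr9:107296409-107296708 on the plus strand and holds 2 matches. Bcl6 has 2 windows, and the one with the most matches is shown. It is chr16:23981234-23981533 on the minus strand and holds 3. Both windows lie inside the spans that GENCODE gives these genes (Cish chr9:107296026-107302784, Bcl6 chr16:23965052-23988852).
Cish: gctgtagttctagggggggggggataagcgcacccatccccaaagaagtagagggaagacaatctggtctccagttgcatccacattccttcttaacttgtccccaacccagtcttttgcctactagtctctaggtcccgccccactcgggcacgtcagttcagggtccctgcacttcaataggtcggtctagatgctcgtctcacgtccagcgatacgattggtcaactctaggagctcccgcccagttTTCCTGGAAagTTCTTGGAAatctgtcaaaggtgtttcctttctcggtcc
Bcl6: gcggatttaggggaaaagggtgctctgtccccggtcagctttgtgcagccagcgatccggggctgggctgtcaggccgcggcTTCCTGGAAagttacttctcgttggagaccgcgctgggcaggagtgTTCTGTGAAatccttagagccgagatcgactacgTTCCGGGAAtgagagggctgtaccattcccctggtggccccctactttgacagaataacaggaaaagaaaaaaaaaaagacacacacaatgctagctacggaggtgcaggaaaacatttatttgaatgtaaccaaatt
A match was found in 9.55% of all 27025 genes of the promoter table, in 3 of the 12 genes of the IL-15 list that fell and have a window, and in 0 of the 5 that rose. The share was 3 of 15 for risen FOXO, quiescence and egress genes and 2 of 10 for risen NF-kB genes. It was 3 of 12 for fallen granule genes and 0 of 13 for fallen glycolysis genes. A match describes the letters and is no evidence of binding.

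Several quiescence genes rose beside Bcl6 and Tcf7. Of 32 tested FOXO targets and genes of quiescence and egress, 16 rose and 4 fell (median log2 fold change 0.66). Pik3ip1, which restrains phosphoinositide 3-kinase, was at 11.8, 29.5 and 38.1 CPM in stimulated and 6.57, 7.89 and 5.25 CPM in primed cells (2.01, adjusted p = 0.000251). Cdkn1b, the p27 cell cycle inhibitor gene, rose by 1.51 (adjusted p = 0.000526) and Cxcr4 by 1.52 (adjusted p = 0.00042). S1pr1, the egress receptor gene, was at 33.6, 21.9 and 27.6 CPM against 19.8, 7.32 and 9.53 CPM (1.19, adjusted p = 0.0128), a call lost without stimulated replicate 1 (adjusted p = 0.0557) or primed replicate 2 (0.0634) or 3 (0.0535). Against that direction, Klf2, a quiescence factor that induces S1pr1, was at 10.5, 8.33 and 9.05 CPM in stimulated and 39.5, 36.5 and 26.3 CPM in primed cells (-1.87, SE 0.17, adjusted p = 2.52e-07).

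Of 30 tested factors of the NK lineage and its maturation, 9 fell and 3 rose (40%, against 35.3% of all genes), and 1 rose without replicate 1 of both groups; the median was -0.10, and 0.08 without scaling between libraries. Eomes and Tbx21, which encode the T-box factors of NK maturation, both had log2 fold changes of -0.03. Id2, needed for the innate lymphoid lineage, was at 1223, 1568 and 1305 CPM in stimulated and 3376, 3235 and 2890 CPM in primed cells (-1.21, SE 0.13, adjusted p = 1.6e-06). Zbtb32, a factor of NK proliferation in infection, fell by 3.27 (adjusted p = 2.71e-06) and Irf8 by 1.90 (adjusted p = 0.0023), while Ets1 rose by 0.54 (adjusted p = 0.00562). Irf1 rose by 0.63 (adjusted p = 0.0122), but by 0.37 and not past the test without stimulated replicate 1 (adjusted p = 0.0854), and not without primed replicate 1 (0.0626).

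Receptor genes changed in both directions. Of 30 other NK receptors and adaptors 16 fell and 9 rose, and of 23 activation and costimulatory receptors 7 fell and 7 rose. Ncr1, the NKp46 gene that also drives the Cre, was at 112, 133 and 115 CPM in stimulated and 504, 618 and 557 CPM in primed knock-out libraries (log2 fold change -2.22, SE 0.15, adjusted p = 8.63e-09). Cd69, an early activation marker, was at 45.1, 54.2 and 53.6 CPM against 233, 256 and 339 CPM (-2.44, SE 0.16, adjusted p = 5.73e-09). Neither gene's groups overlap. Tnfrsf9, the 4-1BB gene, fell by 0.87 (adjusted p = 0.00159) and Slamf7 by 1.37 (adjusted p = 7.39e-07). Crtam, an adhesion receptor of activated cytotoxic cells, rose to 282, 261 and 200 CPM, against 84.4, 76.7 and 88.3 CPM in primed cells (1.57, SE 0.18, adjusted p = 2.77e-06), and Cd7 rose by 1.71 (adjusted p = 7.34e-07). Fcgr3, the CD16 gene, was at 196, 177 and 167 CPM against 65.0, 78.7 and 72.3 CPM (1.32, SE 0.10, adjusted p = 2.99e-08). The integrin genes Itga1, Itga4, Itgae, Itgam and Itgb1 rose and Itgal and Itgb2, the 2 chains of LFA-1, fell. Of 18 checkpoint and inhibitory receptors 6 rose and 3 fell, but 4 rose and 4 fell without replicate 1 of both groups; among them were the rise of Nt5e, the CD73 gene (1.76, adjusted p = 7.19e-06), and of Ceacam1, at 9.56, 10.4 and 7.99 CPM against 0, 1.15 and 0.193 CPM (4.22, adjusted p = 8.28e-06), and the fall of Lilrb4a (-2.67, adjusted p = 7.06e-05).

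**Figure D3:**
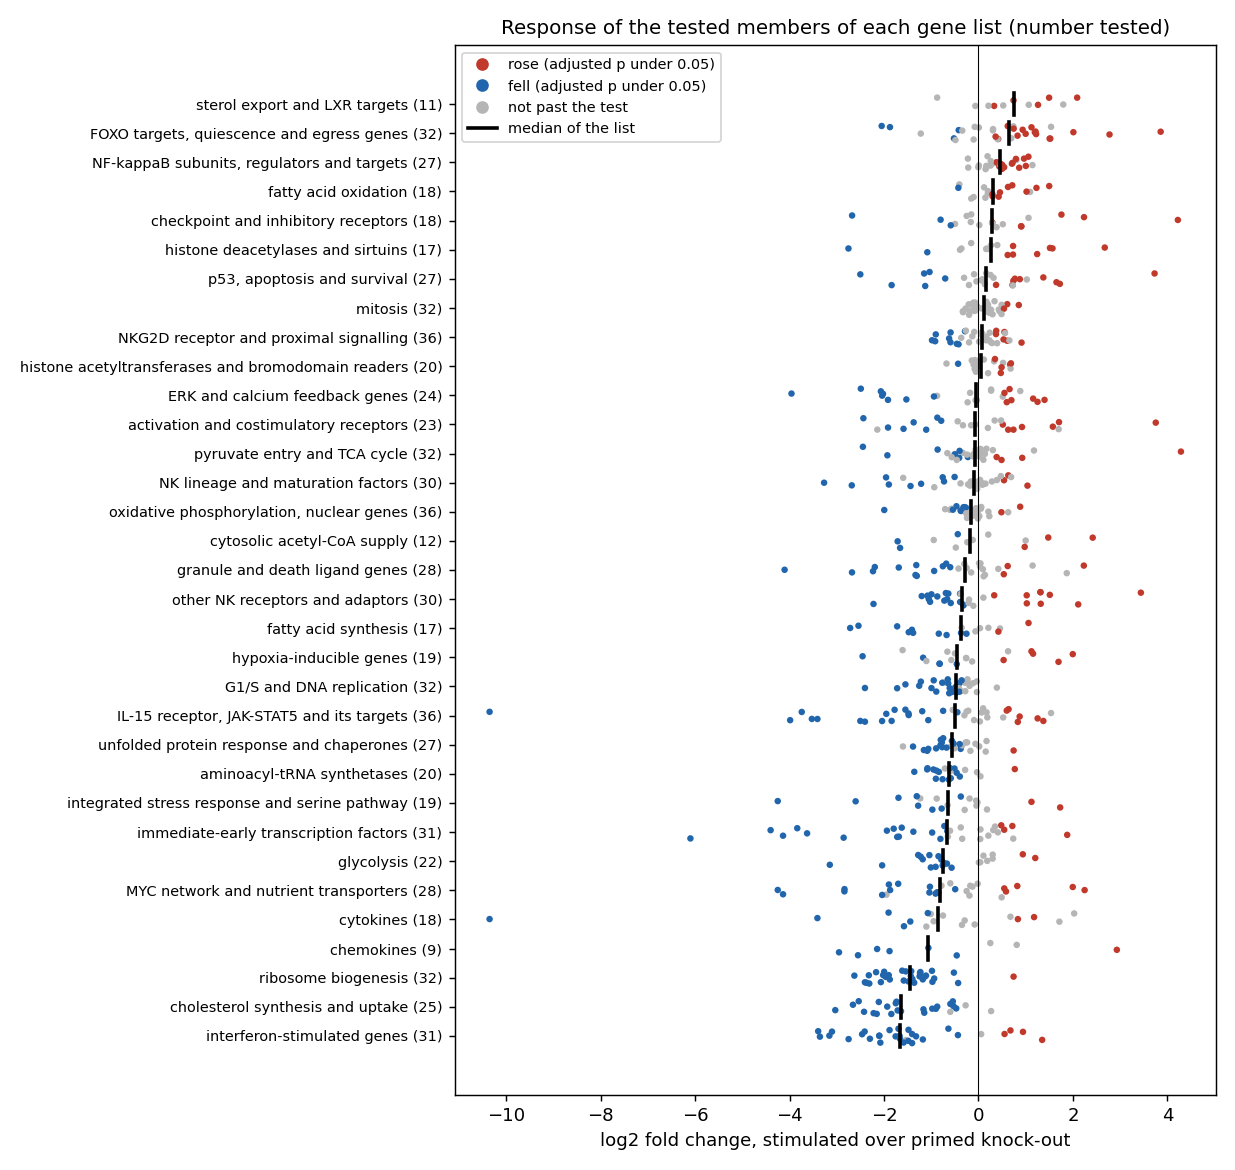
Each point is a tested member of a gene list, placed by its log2 fold change in stimulated over primed knock-out cells; red and blue points rose or fell at adjusted p 0.05, grey points did not pass, and the black bar is the list's median. Interferon-stimulated genes, cholesterol synthesis and ribosome biogenesis have the lowest medians (-1.66, -1.64 and -1.46) and sterol export and FOXO targets the highest (0.74 and 0.66); the point beyond -10 in the cytokine and IL-15 rows is Lif, which had no read in stimulated libraries.

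Many growth genes fell. In the MYC network and among nutrient transporters, 14 of 28 tested genes fell and 5 rose (67.9%, against 35.3% of all genes, median log2 fold change -0.81). The rises included the MYC antagonists Mxd4 (2.25, adjusted p = 1.43e-07), Mxd1 (0.55, adjusted p = 0.000465) and Mxi1. Tfrc, the transferrin receptor gene, was at 12.1, 13.8 and 13.8 CPM in stimulated and 109, 92.4 and 82.5 CPM in primed cells (-2.84, SE 0.21, adjusted p = 2.08e-08). Of 32 ribosome biogenesis genes 31 fell and Polr1c rose (median -1.46), with the same counts without scaling and without replicate 1 of both groups. Nop56, a core protein of box C/D snoRNPs, which methylate ribosomal RNA, was at 110, 101 and 91.3 CPM against 436, 442 and 480 CPM (-2.17, SE 0.10, adjusted p = 2.66e-10), and its partner Nop58 fell by 2.32 (adjusted p = 1.34e-09). Of 20 aminoacyl-tRNA synthetase genes, which charge tRNAs for translation, 14 fell and Qars rose (0.77, adjusted p = 0.000152), 75% in all. Rars and Farsb each fell by 1.08.

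The promoter of Nop2, a nucleolar RNA methyltransferase gene, is shown because MYC binds the E-box CACGTG and its list fell with Myc; the gene was chosen after its values and its match were seen. Nop2 was at 30.2, 23.5 and 22.3 CPM in stimulated and 65.5, 72.3 and 89.7 CPM in primed knock-out libraries (log2 fold change -1.58, SE 0.15, adjusted p = 3.9e-07). The window is chr6:125131633-125131932 on the plus strand (RefSeq, GRCm38.p6), with its 1 match in capitals.
Nop2: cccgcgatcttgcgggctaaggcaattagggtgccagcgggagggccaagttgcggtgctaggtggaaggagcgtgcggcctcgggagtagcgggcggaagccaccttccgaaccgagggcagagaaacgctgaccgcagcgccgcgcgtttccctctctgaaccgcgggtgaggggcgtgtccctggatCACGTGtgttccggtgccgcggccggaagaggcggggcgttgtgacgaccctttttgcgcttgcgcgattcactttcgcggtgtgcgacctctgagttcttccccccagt
CACGTG, which reads the same on both strands, was found in 8 of 26 fallen ribosome biogenesis genes with a window (30.8%). It was in 8.09% of all genes of the table, expressed here or not. Its share was 3 of 7 for risen ERK and calcium feedback genes, 6 of 25 for all listed immediate-early genes and 1 of 9 for fallen genes of the MYC list. Such matches are letters alone and no evidence of binding, and a role of MYC was not tested.

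Glycolysis genes were lower. Of 22 tested, 14 fell and 2 rose (median log2 fold change -0.75). Hk2, the inducible hexokinase gene, was at 1.64, 2.29 and 2.61 CPM in stimulated and 19.8, 17.96 and 20.3 CPM in primed cells (-3.15, SE 0.26, adjusted p = 8.09e-08). The lactate transporter genes Slc16a1 and Slc16a3 fell by 2.04 (adjusted p = 6.58e-07) and 1.04 (adjusted p = 0.00475), and the glucose transporter gene Slc2a1 by 0.85 (adjusted p = 0.000904). Pfkfb3 rose (1.20, adjusted p = 6.03e-05), as did Pfkm (0.94, adjusted p = 0.00882), which was at 0.57 without stimulated replicate 1 (adjusted p = 0.0814). Of 19 hypoxia-inducible genes 5 fell, 8 without primed replicate 1, and 5 rose, among them the mitophagy receptor gene Bnip3l, at 254, 262 and 235 CPM against 102, 116 and 119 CPM (1.16, SE 0.12, adjusted p = 8.39e-07).

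At the entry of pyruvate into mitochondria Pdk2, which inhibits pyruvate dehydrogenase, rose to 12.2, 27.0 and 26.5 CPM, against 0.872, 1.38 and 1.06 CPM in primed cells (log2 fold change 4.29, SE 0.55, adjusted p = 1.1e-05), and Pdp1, the phosphatase gene that reverses that inhibition, fell by 2.45 (adjusted p = 9.67e-06). In the whole list of pyruvate entry and the TCA cycle 7 of 32 fell and 4 rose (34.4%, against 35.3% of all genes); without scaling 5 fell and 9 rose, and 2 rose without stimulated replicate 1 or primed replicate 1. Of 36 nuclear genes of oxidative phosphorylation 8 fell and 2 rose (27.8%, against 35.3% of all genes). In that list 13 fell and 1 rose without stimulated replicate 1, and 4 fell and 6 rose without scaling. The clearest was Cycs, the cytochrome c gene, at 69.2, 99.3 and 89.3 CPM against 301, 346 and 380 CPM (-1.99, SE 0.13, adjusted p = 8e-09).

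Many lipid synthesis genes fell, and the making of lipids itself was not measured. In wild-type cells 21 genes of cholesterol synthesis and uptake and 10 of fatty acid synthesis fell as well. Of 25 tested genes of cholesterol synthesis and uptake, 22 fell and 0 rose (median log2 fold change -1.64); without scaling 19 fell and 1 rose. Hmgcs1, which makes HMG-CoA, was at 157, 160 and 173 CPM in stimulated and 848, 906 and 870 CPM in primed knock-out libraries (-2.42, SE 0.14, adjusted p = 1.73e-09). Idi1, the isopentenyl diphosphate isomerase gene, was at 85.5, 101 and 96.3 CPM against 543, 552 and 543 CPM (-2.54, SE 0.14, adjusted p = 1.03e-09). The libraries within each group lie close together and the groups far apart. Of 17 fatty acid synthesis genes 10 fell and 2 rose, with Fasn, the fatty acid synthase gene, at 54.0, 29.9 and 45.5 CPM against 206, 269 and 278 CPM (-2.54, SE 0.21, adjusted p = 8.8e-08) and the desaturase gene Scd2 falling by 1.72 (adjusted p = 4.31e-08).

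The Hmgcs1 promoter, where SREBP2 is known to act, is shown with a match to the sterol response element core TCACNCCAC in capitals (both strands searched). The window is chr13:119690101-119690400 on the plus strand (RefSeq, GRCm38.p6).
Hmgcs1: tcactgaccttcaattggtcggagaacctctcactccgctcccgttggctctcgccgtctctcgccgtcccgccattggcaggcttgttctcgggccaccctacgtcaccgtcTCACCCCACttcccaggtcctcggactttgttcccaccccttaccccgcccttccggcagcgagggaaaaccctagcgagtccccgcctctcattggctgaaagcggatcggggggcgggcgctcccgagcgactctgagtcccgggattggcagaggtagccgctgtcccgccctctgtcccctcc
This was the only window with that match among the 15 fallen cholesterol genes that have one, and 1.44% of all genes of the table hold it.

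Several genes of sterol export and lipid oxidation rose. Abcg1, a cholesterol exporter and LXR target, was at 148, 200 and 164 CPM in stimulated and 38.7, 42.7 and 39.0 CPM in primed knock-out cells (log2 fold change 2.09, SE 0.15, adjusted p = 1.95e-08). Mylip, an LXR target, rose by 1.50 (adjusted p = 2.21e-05). In that list 5 of 11 rose and 0 fell (median 0.74), 8 and 0 without scaling, and 4 and 1 without replicate 1 of both groups. Of 18 fatty acid oxidation genes 9 rose and 1 fell (median 0.30), and 5 rose without stimulated replicate 1 or stimulated replicate 2. Cpt1a, the gate of fatty acid entry into mitochondria, was at 85.2, 64.7 and 74.0 CPM against 34.1, 31.0 and 30.5 CPM (1.23, SE 0.12, adjusted p = 7.16e-07), and the carnitine carrier gene Slc25a20 rose by 1.50 (adjusted p = 1.86e-05).

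Among other genes of acetyl-CoA supply 3 of 12 rose and 3 fell. Acss2, the cytosolic acetate route to acetyl-CoA, was at 15.4, 39.1 and 30.9 CPM in stimulated and 17.8, 16.5 and 8.52 CPM in primed cells, with overlapping groups (log2 fold change 1.00, SE 0.38, adjusted p = 0.052); without stimulated replicate 1 it was past the test (1.27, adjusted p = 0.0203). Acat2, which joins 2 acetyl-CoA in the cytosol and also stands in the cholesterol list, fell by 1.71 (adjusted p = 5.73e-09). Of 20 histone acetyltransferases and bromodomain readers 5 rose and 1 fell (30%, against 35.3% of all genes), and 8 rose and 0 fell without scaling. Of 17 histone deacetylases and sirtuins 7 rose and 2 fell, with Sirt3, a mitochondrial deacetylase gene, at 64.0, 51.5 and 47.5 CPM against 19.9, 17.7 and 19.5 CPM (1.51, SE 0.13, adjusted p = 1.86e-07).

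The cell cycle lists differed from each other. Of 32 genes of G1/S and DNA replication 19 fell and 0 rose (median log2 fold change -0.48), led by Ccnd2 and by Cdk6, at 64.4, 86.5 and 85.6 CPM in stimulated and 285, 244 and 250 CPM in primed cells (-1.72, SE 0.14, adjusted p = 8.09e-08). Of 32 mitosis genes 0 fell and 3 rose (9.38%, against 35.3% of all genes), or 7 without scaling and 5 with the 6 libraries alone, namely Cdc25b (0.85, adjusted p = 0.00114), Bub1b (0.61, adjusted p = 0.00476) and Kif20a. In the list of p53, apoptosis and survival 9 of 27 rose and 6 fell; with the rise of Bcl2l11 went those of Bmf, another death inducer of its family (3.73, adjusted p = 3.81e-06), and of Trp53inp1 (1.72, adjusted p = 4.3e-08), while Bcl2 fell.

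Several chaperone genes of the endoplasmic reticulum and cytosol fell. Of 27 genes of the unfolded protein response and chaperones 15 fell and Ern1 rose (0.74, adjusted p = 0.00766). Without replicate 1 of both groups 14 fell and 0 rose, with Ern1 at 0.46 (adjusted p = 0.0775). Without scaling 10 fell and 1 rose. Hspa5, the BiP gene, was at 615, 618 and 605 CPM in stimulated and 1515, 1567 and 1717 CPM in primed cells (log2 fold change -1.39, SE 0.09, adjusted p = 8.57e-09), with no overlap. Of 19 genes of the integrated stress response and serine pathway 8 fell and 2 rose (median -0.65): Psat1, a serine synthesis gene, fell by 1.69 (adjusted p = 4.73e-08), while Ddit3, which encodes CHOP, rose by 1.73 (adjusted p = 2.27e-05).

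Interferon-stimulated genes were lower. Of 31 tested, 25 fell and 4 rose (median log2 fold change -1.66). Usp18, which shuts off the interferon receptor, was at 31.2, 26.8 and 47.8 CPM in stimulated and 182, 260 and 500 CPM in primed knock-out libraries (-3.16, SE 0.35, adjusted p = 2.06e-06). Isg15, a ubiquitin-like antiviral protein gene, was at 17.3, 7.62 and 15.9 CPM against 64.8, 95.9 and 190 CPM (-3.10, SE 0.39, adjusted p = 9.33e-06). Primed replicate 3 was the highest for both, and every stimulated library was below every primed one. The guanylate-binding protein genes split: Gbp4 fell by 1.66 (adjusted p = 1.67e-07), and Gbp2 (0.94, adjusted p = 1.59e-05), Gbp3 (1.35, adjusted p = 1.81e-05) and Gbp5 rose with Stat2. Gbp genes and Ifit3 with Ifit3b are close copies that may share reads. The Isg15 promoter is shown because 3 overlapping matches to the interferon-stimulated response element core (GAAA, any 2 bases, GAAA; both strands searched) stand in 1 run, in capitals. The window is chr4:156200769-156201068 on the minus strand (RefSeq, GRCm38.p6).
Isg15: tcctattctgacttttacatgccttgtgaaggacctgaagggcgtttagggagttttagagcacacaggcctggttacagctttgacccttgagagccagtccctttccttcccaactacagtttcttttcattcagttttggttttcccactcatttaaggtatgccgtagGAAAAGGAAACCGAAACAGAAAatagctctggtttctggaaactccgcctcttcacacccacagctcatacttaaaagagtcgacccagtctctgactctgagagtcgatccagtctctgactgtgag
That core was found in 11 of 19 fallen list genes with a window (57.9%), in all 4 that rose, and in 3.99% of all genes of the table, so the letters do not separate risen from fallen members.

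Markers of the labelled NK type were detected in every library, with all 12 members above 0, and their summed level was 6740 to 8130 CPM in stimulated and 18500 to 24300 CPM in primed knock-out libraries, with Gzmb the most abundant of them in primed and Nkg7 and Il2rb in stimulated cells. Of the 12, 9 fell and 0 rose. B-cell markers summed to 446 to 627 CPM in stimulated and 85.3 to 111 CPM in primed cells. That is almost all Ighm, at 619, 440 and 461 CPM against 82.1, 107 and 106 CPM (log2 fold change 2.37, SE 0.14, adjusted p = 1.92e-09), while Ms4a1, Pax5 and Blk had no read in any of the 6. T-cell markers summed to 329 to 431 CPM against 438 to 589 CPM, mostly Trbc1 and Trbc2, with Cd4 and Cd8b1 at 0 in all 6. Among the T-cell markers 3 fell and 2 rose. Cd6 rose, at 12.3, 7.53 and 6.97 CPM in stimulated and 0, 3.28 and 3.85 CPM in primed cells. The Cd6 call was lost without stimulated replicate 1 (adjusted p = 0.0787). Monocyte, macrophage and neutrophil markers summed to 179 to 204 CPM against 134 to 166 CPM, with Lyz2 and Adgre1 at 0; in that list Cd68, a lysosomal protein gene, rose by 1.30 (adjusted p = 4.04e-06). Dendritic-cell markers summed to 308 to 448 CPM against 237 to 311 CPM, mostly the integrin gene Itgax (0.83, adjusted p = 0.000155), which NK cells also express. In that list 2 rose and 1 fell, namely Bst2, at 49.5, 24.8 and 39.4 CPM in stimulated and 69, 90.4 and 142 CPM in primed cells. Endothelial and stromal markers summed to 124 to 157 CPM against 57.4 to 68.6 CPM, mostly Pecam1 (1.21, adjusted p = 4.86e-05), and erythroid markers to at most 0.367 CPM against at most 1.81 CPM. The part of these cells in the results was not tested.

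The response of knock-out cells was set against that of wild-type cells as a difference of differences in the same fit. In wild-type cells 1367 genes rose (9.20%) and 1587 fell (10.7%). The responses differed between genotypes for 528 genes (3.55%): the knock-out response was more positive for 221 (1.49%) and more negative for 307 (2.07%). Over all 528, the fitted response was larger in size in knock-out cells for 431 and smaller for 97. Among the 274 of them called in wild-type cells these were 179 and 95. The count depends on single libraries and was 259 without stimulated wild-type replicate 1, 305 without stimulated knock-out replicate 3, 333 without primed wild-type replicate 1 and 1043 without replicate 1 of both knock-out groups. In all, 3022 genes passed the test in knock-out and not in wild-type cells, and 728 the reverse, which does not show that those responses differ. Among genes called in both, 2205 moved the same way and 21 in opposite ways.

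**Figure D4:**
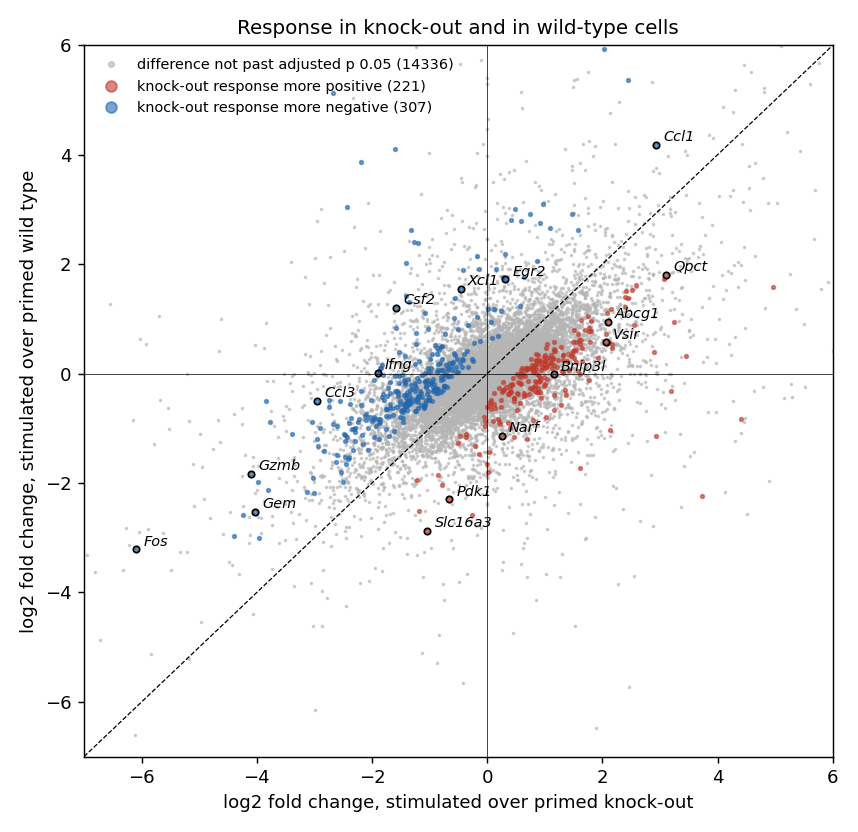
Each point is a gene, by its log2 fold change in stimulated over primed cells of knock-out (horizontal) and wild type (vertical); the dashed line marks equal responses, and 51 genes lie outside the axes. Red (221) and blue (307) points differ between genotypes at adjusted p 0.05; Ifng, Ccl3 and Gzmb lie above the line and Slc16a3, Vsir and Abcg1 below it.

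Several effector genes had a more negative response in knock-out cells. Ifng changed by -1.90 in knock-out and by 0.01 in wild-type cells, where its means were 78.5 ± 11.4 CPM stimulated and 77.8 ± 12.9 CPM primed (SD, n = 3 each); the difference was -1.92 (SE 0.20, adjusted p = 0.00039). Ccl3 (difference -2.46, adjusted p = 0.00039) and Ccl4 (-2.06, adjusted p = 0.0011) fell in knock-out cells and changed by -0.49 each in wild-type cells (adjusted p = 0.11 each). Xcl1 rose by 1.55 in wild-type cells, to 2973 CPM on average, against 1012 CPM primed, and its difference was -2.01 (adjusted p = 0.00039). Gzmb fell in both, by 4.10 in knock-out and 1.83 in wild-type cells (difference -2.28, adjusted p = 0.00072). Csf2 differed by -2.78 (adjusted p = 0.027), lost without any of stimulated knock-out replicate 3, primed knock-out replicate 3, stimulated wild-type replicate 1 and primed wild-type replicates 2 and 3 (adjusted p 0.0529 to 0.0768). Ccl1 rose less in knock-out cells (-1.26, adjusted p = 0.028). Its call was lost without any of primed knock-out replicates 2 and 3, stimulated wild-type replicate 1 and primed wild-type replicates 1 and 3 (adjusted p 0.0524 to 0.0712). Crtam also rose less (-1.06, adjusted p = 0.024), and its difference was not checked with libraries left out. Egr2, which did not pass the test in knock-out cells, rose by 1.72 in wild-type cells (difference -1.41, adjusted p = 0.00099). In the lists, 3 of 18 cytokine genes, 4 of 9 chemokine genes, 6 of 28 granule genes, 5 of 31 immediate-early genes and 4 of 23 activation receptors responded more negatively in knock-out cells, against 2.07% of all genes, and 1 cytokine gene responded more positively. For Prf1 the difference was -0.59 (adjusted p = 0.26), for Cd69 -0.46 (adjusted p = 0.25) and for Bcl6 -0.50 (adjusted p = 0.42). For Prf1 and Bcl6 it was past the test without replicate 1 of both knock-out groups (-0.97 and -0.82). For Bcl6 it was also past the test without primed knock-out replicate 1 alone (-0.79, adjusted p = 0.0418).

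Growth, chaperone and metabolic genes also differed. Of 32 ribosome biogenesis genes 16 fell further in knock-out cells, for example Nop56 by 2.17 against 1.12 in wild-type cells (difference -1.05, adjusted p = 0.0007), and their median was -1.46 in knock-out and -0.73 in wild-type cells. Of 27 unfolded protein response and chaperone genes 7 did so, with Hspa5 falling by 1.39 against 0.34 (difference -1.04, adjusted p = 0.00039). Tfrc fell by 2.84 against 1.42 (difference -1.42, adjusted p = 0.0088), and Ncr1 by 2.22 against 0.84 (difference -1.38, adjusted p = 0.0012). Glycolysis ran the other way: 7 of 22 genes, and 5 of 19 hypoxia-inducible genes, had a more positive response in knock-out cells, against 1.49% of all genes, and 0 a more negative one. Slc16a3 fell to 9.39, 5.00 and 6.12 CPM in stimulated knock-out cells, against 11.5, 13.5 and 17.2 CPM in primed ones, whereas wild-type cells averaged 17.4 CPM stimulated and 127 CPM primed (difference 1.83, adjusted p = 0.0095). Pdk1 (1.64, adjusted p = 0.025) and Slc2a1 (1.00, adjusted p = 0.028) also differed, and for all 3 genes the primed wild-type mean was above the primed knock-out mean. The Pdk1 call was lost when any of 4 single libraries was left out (adjusted p 0.0518 to 0.0719) and the Slc2a1 call when any of 8 was (0.0502 to 0.0797). Bnip3l, Vsir, an inhibitory receptor gene, Fcgr3 and Abcg1 rose more in knock-out cells (differences 1.17, 1.48, 0.99 and 1.15; adjusted p = 0.00093, 0.0014, 0.00092 and 0.0054). For Bnip3l, Fcgr3 and Abcg1 the stimulated levels of the genotypes were close to each other and the primed knock-out level was the lowest of the 4. The differences of Nop56, Hspa5, Tfrc, Bnip3l, Fcgr3 and Abcg1 were not checked with libraries left out.

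**Figure D5:**
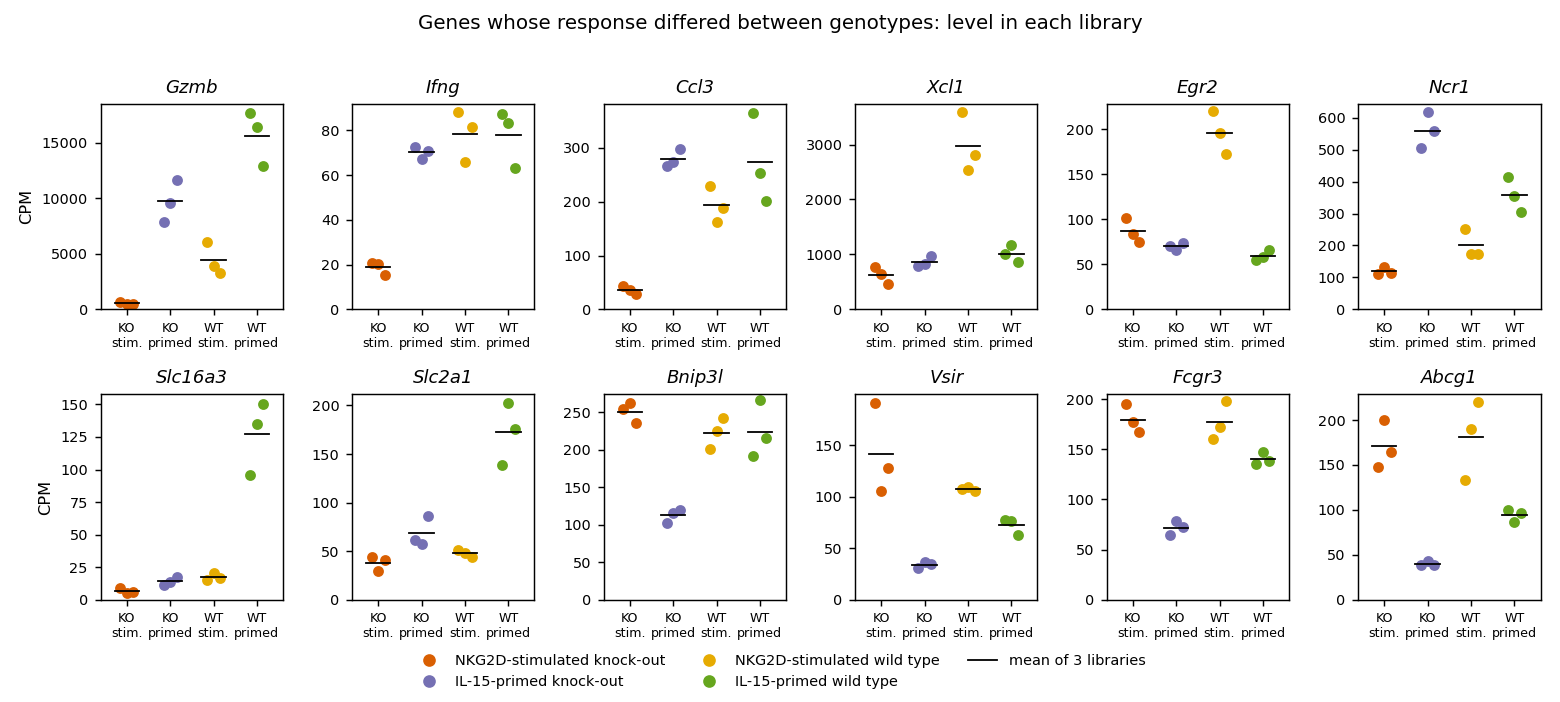
CPM of 12 genes with a called difference of response, in each library of stimulated knock-out, primed knock-out, stimulated wild-type and primed wild-type cells (left to right), with the mean as a line. Ifng, Ccl3 and Xcl1 are lowest in stimulated knock-out cells, and Slc16a3 and Slc2a1 are highest in primed wild-type cells.

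The interferon-stimulated genes, NF-kB genes, checkpoint receptors, mitosis genes and fatty acid oxidation genes held 0 members with a called difference between genotypes, and cholesterol synthesis held 3 of 25 (Hmgcs1, -0.86, adjusted p = 0.016, and 0.0514 without stimulated wild-type replicate 1; Idi1, -0.73, adjusted p = 0.036; and Hsd17b7). Their medians in knock-out and wild-type cells were -1.66 and -1.26 for interferon-stimulated genes, 0.46 and 0.83 for NF-kB genes, and -1.64 and -1.45 for cholesterol synthesis. Over all genes 3.55% had a called difference, so 0 in lists of 18 to 32 tested genes is near that share. A difference that is not called is not shown to be absent. For Usp18 the difference was -0.88 (SE 0.45). The differences of Idi1 and Hsd17b7 were not checked with libraries left out.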

How the data were processed

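RNA from sorted mouse splenic NK cells was sequenced in 18 libraries, 3 in each of 6 groups, without molecular barcodes. The values are expected counts per gene that the authors deposited; the tools named are DRAGEN, bcl2fastq and edgeR and the genome build is mm10, per the submitters' processing notes, with roles and versions not given in the sources used here. Of the values above 0, 30% were not whole, so they were rounded to whole numbers; the test had been planned for whole counts and was kept.

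Genes passing edgeR's filterByExpr (14864) were fitted with edgeR 4.0.16 (R 4.3.3) by quasi-likelihood, TMM scaling and 1 mean per group over all 18 libraries, which share one estimate of the spread (12 residual degrees of freedom). The coefficient of variation between libraries, beyond counting error, was 0.38 in primed and 0.236 in stimulated knock-out cells. It was 0.142 in fresh knock-out cells. The shared value of 0.234 is thus below the spread of the primed knock-out libraries. Contrasts were stimulated minus primed knock-out, the same in wild type, and their difference, with Benjamini-Hochberg adjustment over all genes at 0.05. The code was tested on simulated data. Genes that "rose" or "fell" passed that test. SEs come from the fit and hold the spread between libraries; the floor for a gene with no read covers counting error only.

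Named genes are Acly; the 15 largest rises and falls with mean log2 CPM of at least 3 and no overlap of groups; the 2 members of smallest p per list and direction; a set of effector, cytokine-signalling and metabolic genes; and the 10 largest differences between genotypes each way. Further genes in the text were picked with their values known. The members and lists were chosen with earlier results of these data known. Alternatives were DESeq2 1.42.0, limma 3.58.1 (voom with sample weights), other scaling and filters, fewer libraries, a replicate block and each replicate left out. The authors' deposited comparisons of genotypes were not used here. Promoters are from RefSeq (GRCm38.p6), with 716 of 902 list genes matched, and gene positions from GENCODE on mm10. Some genes are not reported here.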

Additional observations from a re-analysis of the deposited data

Results flagged for a closer look

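The responses of knock-out and wild-type cells to wash and stimulation differed for 528 of 14864 genes, by a test of the difference itself (the interaction in edgeR's quasi-likelihood fit with Benjamini-Hochberg adjustment). The values below are knock-out response minus wild-type response on the log2 scale.

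Among activation and effector genes the difference was -2.89 for Fos, -2.78 for Csf2, -2.46 for Ccl3, -2.28 for Gzmb, -2.06 for Ccl4, -2.01 for Xcl1, -1.92 for Ifng, -1.50 for Gem, -1.43 for Egr1, -1.41 for Egr2, -1.38 for Ncr1, -1.26 for Ccl1, -0.95 for Dusp6 and -0.52 for Bcl2. Among metabolic and RNA-modifying genes it was -2.14 for Prodh (proline dehydrogenase), -1.98 for Mettl1 (a tRNA methyltransferase), -1.91 for N6amt1, -1.68 for Shmt1 and -0.86 for Hmgcs1, and for Khdc1b it was -1.97.

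More positive responses in knock-out cells were 1.86 for Arrb1 (beta-arrestin 1), 1.83 for Slc16a3, 1.81 for Zfp395, 1.64 for Pdk1, 1.63 for Mrps34, 1.55 for Anapc2, 1.48 for Vsir, 1.39 for Narf, 1.37 for Gys1 (muscle-type glycogen synthase), 1.36 for Unc119b, 1.34 for Ypel3, 1.30 for Qpct, 1.06 for Mypopos, 1.00 for Slc2a1, 0.98 for Acsbg1 and 0.97 for Calcoco1. The calls of Bcl2, Ccl1, Slc2a1, Pdk1, Prodh, Anapc2, Mrps34, Csf2, Dusp6, Mypopos, Acsbg1, Egr1 and Hmgcs1 were each lost when at least 1 single library was left out.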

How the results depend on the processing

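The 5248 genes called for the response were 2302 when at least 2-fold was asked, 3347 with the 6 libraries alone and 1755 with those and a replicate block; leaving out 1 library gave 4399 to 4947, DESeq2 5705, voom 6742 and RLE factors 5269. The 528 differences between genotypes were 1016 with DESeq2, 2114 with voom, 887 with no filter on low counts, 197 with 12 libraries, 264 at 2-fold or more, 1043 without replicate 1 of both knock-out groups (chosen after seeing the data), and 259 to 756 with 1 library left out. Without scaling factors 68.5% of response calls were higher, against 52.1% with them, and 55.7% of differences were more positive, against 41.9%.

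The labels do not say that a number marks a shared animal, and same-numbered knock-out libraries did not deviate together (correlations -0.381, 0.031 and -0.376), so they were not treated as pairs. Sex-linked genes do match by number in both genotypes, so pairing is not shown to be absent; a replicate block gave 4542 response calls and 250 differences. Of 169 called named responses 117 kept their call in every alternative, and 22 of 37 called differences did. Direction turned for 3 genes that had not passed the test: Irf4 (-0.815 to 0.254 with 1 library left out, above 0 without primed knock-out replicate 3), Nfkbia (-0.065 without replicate 1 of both knock-out groups) and Tyrobp (-0.015 with voom, -0.114 without both). The cause was not tested. The low depth of primed replicate 1 limits genes with few reads.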

Other observations

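Gene families grouped by symbol, chosen after the results were seen, add to the lists. Of 332 tested Zfp zinc-finger genes 115 rose and 13 fell in stimulated against primed knock-out cells (median log2 fold change 0.40), against 18.4% and 16.9% of all genes; without scaling factors 145 rose and 7 fell. Of 24 Atg genes, which build autophagosomes, 10 rose and 0 fell (median 0.41; 14 and 0 without scaling).

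Families of protein folding, turnover and transport did not move as 1 group. For all the families here, the background is that 18.4% of all genes rose and 16.9% fell. Of 46 Rab GTPases 8 rose, near that share, and 3 fell, and of 12 lysosomal cathepsins 3 rose and 0 fell. Vacuolar ATPase subunits (18) and p24 and COPI genes (17) each had 2 that rose and 1 that fell. Of 8 CCT chaperonin subunits, which fold actin and tubulin, 5 fell and 0 rose (median -0.68, with the same counts without scaling). Of 37 proteasome subunits 13 fell and 1 rose, but 7 fell and 3 rose without scaling, and of 19 nucleoporins 11 fell and 1 rose, 6 and 1 without scaling. Of 78 mitochondrial ribosomal proteins 27 fell and 8 rose, 19 and 14 without scaling. Of 80 cytosolic ribosomal proteins 3 fell and 0 rose (median -0.02), which is 2 and 17 without scaling factors, so no direction holds for them. Of 11 Ly49 receptors, close copies that may share reads, 4 fell and 0 rose.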
